A study of Mus musculus with 8 samples.

Results

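The 10 genes described here are the constant genes of the immunoglobulin heavy chain (Ighm, Ighd, Igha, Ighg1, Ighg2b, Ighg2c, Ighg3 and Ighe), the constant gene of the kappa light chain (Igkc) and the joining chain gene (Jchain). They were chosen by name, as 10 of the 32285 genes measured, with earlier results of these data known. Immune cells of the mouse brain were profiled by single-cell RNA sequencing in 8 libraries, 1 for each pairing of 2 genotypes with 4 treatments. The genotypes were wild-type (WT) C57BL/6J mice and App NL-G-F mice (APP), which carry mutations of familial Alzheimer's disease in their own App gene and deposit amyloid, all 16 weeks old per the labels. Controls drank plain water. Acute colitis followed 1 week of 2% dextran sulfate sodium (DSS) as drinking fluid, chronic colitis followed 3 cycles of 5 days on 2% DSS and 5 days on water, and food allergy followed sensitisation to ovalbumin and feeding with it. Brains were flushed of blood, and CD45.2+ cells were sorted after mice within a library had been marked with hashtag antibodies. No source used here ties a hashtag to a mouse, and with 1 library per condition no single condition could be tested. Where 4 values of a genotype stand together, they are in the order control, acute colitis, then chronic colitis, then food allergy.

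A B cell first places Ighm and Ighd behind its rearranged variable segment, so a naive cell carries IgM and IgD. After activation, class switching joins the same variable segment to another constant gene, and the plasma cell that results secretes that class in bulk. The joining chain links IgM into pentamers and IgA into dimers that mucosal surfaces carry outward, and IgA is the main antibody of the gut. The Ighg genes encode the IgG subclasses, which dominate antibody in blood, Ighe encodes the IgE of allergy, and Igkc is used by most light chains of the mouse.

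The heavy constant genes lie in a row on the minus strand of chromosome 12 (GRCm38, GENCODE annotation), in the order Ighm, Ighd, Ighg3, Ighg1, Ighg2b, Ighg2c, Ighe and Igha, from chr12:113418558-113422730 for Ighm to chr12:113254830-113260236 for Igha. Igkc lies at chr6:70726435-70726966 on the plus strand and Jchain at chr5:88519809-88527891 on the minus strand. The libraries were read from the 5′ end of each transcript, so the first coding exon is the part of a constant gene closest to where reads began. The first 60 coding bases are printed for the genes whose counts separate the classes, with capitals at the bases of the other IgG genes that differ from Ighg1, to show how much sequence told the IgG genes apart.
Ighm, chr12:113422671-113422730: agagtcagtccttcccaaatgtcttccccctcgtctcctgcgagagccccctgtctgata
Igha, chr12:113260177-113260236: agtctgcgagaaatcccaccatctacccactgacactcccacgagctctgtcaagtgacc
Ighg1, chr12:113330464-113330523: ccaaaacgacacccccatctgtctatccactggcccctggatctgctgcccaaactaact
Ighg2b, chr12:113307874-113307933: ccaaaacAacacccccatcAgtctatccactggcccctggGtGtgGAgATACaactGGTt
Ighg2c, chr12:113288873-113288932: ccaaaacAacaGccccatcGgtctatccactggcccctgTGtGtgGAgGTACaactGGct
Ighg3, chr12:113361173-113361232: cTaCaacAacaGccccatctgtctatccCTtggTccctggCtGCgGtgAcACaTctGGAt
Over these 60 bases Ighg2b differed from Ighg1 at 13 positions, Ighg2c at 14 and Ighg3 at 18. Over the whole first coding exon the 6 pairs of IgG genes were 79.1% to 88.5% identical, with longest shared runs of 17 to 37 bases, while the other 22 pairs of heavy genes were 53.6% to 64.3% identical and shared at most 12 bases in a row. Reads wholly within a shared run could not be told apart between IgG genes, and how many reads did so is not known from the counts.

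After filtering, 50072 cells remained, 4873 to 7199 per library, with medians of 2782 to 4130 unique molecular identifiers (UMIs, each standing for 1 captured transcript) per cell and library totals of 26988646 to 56307389 UMIs. Any pair of libraries shared 34 to 72 cell barcodes. Hashtags split the cells into 30 groups, of which 13 had low and 16 had high levels of immediate-early genes in T cells, and the members are also given by these sets. What sets these groups apart is not given in the labels, and mouse and handling cannot be told apart. Plasma cells were taken as cells with at least 5 Jchain UMIs, which gave 1327 cells: 142, 113, 139 and 220 in the WT libraries, and 194, 210, 151 and 158 in the APP libraries. The gate sat in a gap, since 2275, 226, 42 and 11 cells had 1, 2, 3 and 4 Jchain UMIs, and 8, 2, 4, 2 and 2 cells had 5, 6, 7, 8 and 9. Several hashtags were read on 324 of the 1327 plasma cells, against 4674 of all 50072 cells. Of the gated cells, 1133 lay in the cluster led by plasma cell markers and 194 elsewhere, among them 83 in neutrophil and 39 in macrophage clusters.

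Some plasma cell barcodes had near-identical profiles. Within each of 7 sets, comprising 142 barcodes, all barcodes carried the same variable gene pair and class. The variance over mean of their counts was 0.933 to 1.17. The sets were chosen by an upper limit on this value, so the choice itself bounds the range. The next set, of 5 barcodes in APP food allergy, stood at 1.33 and was not included. Whether counts within the sets varied more than sampling allows was not tested. The WT food allergy library held 121 of the 142 barcodes among its 220 plasma cells, in sets of 20, 22, 45 and 34. Their medians were 1073 to 2101 UMIs, against 21160 UMIs for the plasma cells of that library once each set was reduced to 1 cell. WT chronic colitis held 1 set of 7 barcodes and APP chronic colitis 2 sets of 7. The WT food allergy sets of 45 and 34 barcodes sat in neutrophil and macrophage clusters, and 39 of the 45 had no hashtag. Whether these are fragments or copies of single cells was not tested, so each count that rests on them is given with all barcodes and with every set counted as 1 cell, which leaves 1192 plasma cells.

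**Figure D1:**
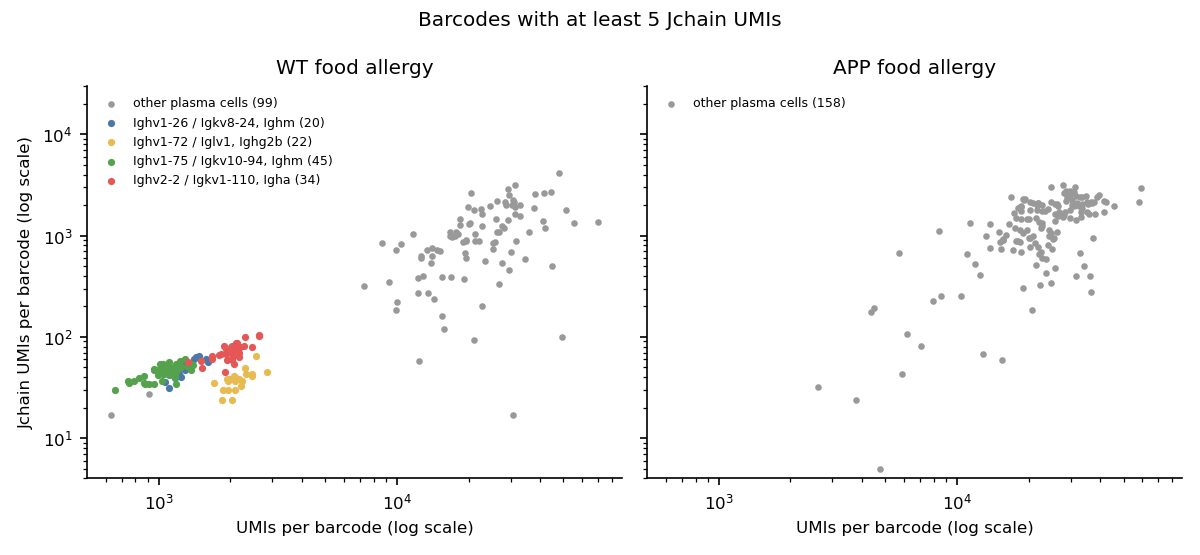
Jchain UMIs (log axis) against all UMIs (log axis) of each plasma cell barcode in the 2 food allergy libraries. In WT food allergy the 4 coloured sets of 20, 22, 45 and 34 barcodes sit apart at low UMIs, while the 99 other barcodes spread like the 158 of APP food allergy.

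Levels over the clusters are a description, since the clusters were made from the same counts. Summed over libraries, the plasma cells of the plasma cluster held 53090 CPM of Jchain and 21942 of Igkc. Every other cluster, with its gated cells left out by the rule, held 3.83 to 22.9 CPM of Jchain. Mature B cells came next for Igkc, at 1213 CPM, and developing B cells at 584 CPM. CPM is a gene's UMIs scaled to the same total in each sum of cells. UMIs count molecules by 1 end, so CPM was not divided by gene length. Free RNA also held these genes: barcodes of under 100 UMIs held 2402 to 4356 CPM of Jchain, 1104 to 9348 of Igkc and 643 to 2525 of Ighm. In T cells, which make no antibody, 1.43% to 9.18% of the cells of a library had a Jchain UMI and 21.4% to 34.2% had an Ighm UMI. Ighm stood above Jchain in every cluster outside the B lineage, as in CD4 T cells (217 against 22.9 CPM) and neutrophil precursors (166 against 3.83). The cluster named plasmacytoid dendritic cells (274 against 7.11) was a mixture. Its leading genes included Siglech and Cox6a2 but also Cd209a, Clec10a and Mgl2 of conventional type 2 dendritic cells, and a finer clustering gave each type its own cluster. The source of the Ighm outside the B lineage was not tested.

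**Figure D2:**
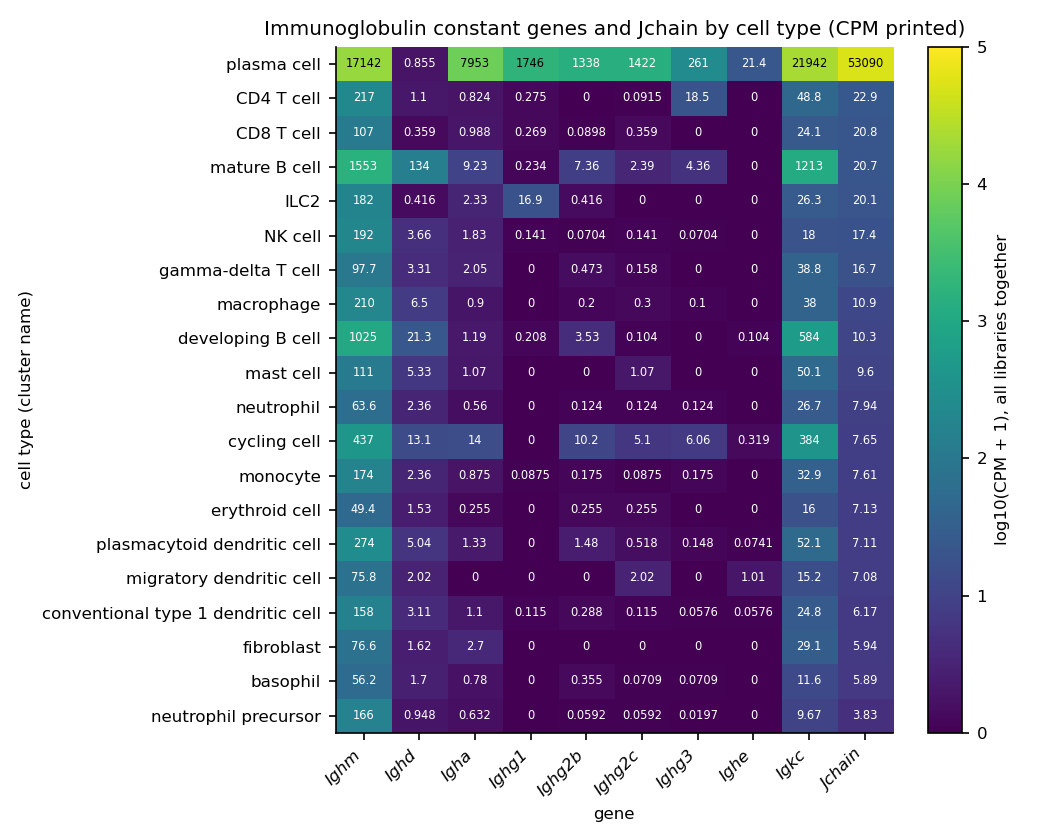
Level of the 10 genes in each of 20 clusters, shown as log10(CPM + 1) with CPM printed in each cell, counts summed over the 8 libraries. Plasma cells lead for every gene but Ighd, which peaks in mature B cells at 134 CPM.

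Most plasma cells were IgM. The dominant class was the heavy constant gene with the highest count, given at least 3 heavy UMIs in the cell. By this rule 882 of 1327 plasma cells (66.5%, exact 95% binomial interval 63.9 to 69.0) were IgM, 293 (22.1%, 19.9 to 24.4) IgA and 148 (11.2%, 9.51 to 12.97) IgG, with 1 IgE cell, 0 IgD cells and 10 without enough heavy UMIs. Cells rarely mixed classes. With each set counted as 1 cell the dominant gene held over 90% of heavy UMIs in 98.8% of IgM, 95.4% of IgA, 97.2% of Ighg1, 95.2% of Ighg2b and 95.5% of Ighg2c cells. Kappa light chains led in 91.4% of plasma cells and lambda in 8.06%, or 93.5% and 6.38% with each set counted as 1 cell. With every near-identical set counted as 1 cell the shares were 67.2% IgM, 21.8% IgA and 10.7% IgG. Intervals cover counting error only.

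Ighm, the constant gene of IgM, was the leading heavy gene of plasma cells in 7 of 8 libraries, APP food allergy being the exception. Its level was 14273, 24048, 19314 and 20930 CPM in WT plasma cells, and 14690, 18730, 13656 and 10541 CPM in APP plasma cells. IgM cells made up 77.5%, 81.4%, 63.3% and 64.1% of WT and 62.9%, 77.6%, 68.2% and 39.9% of APP plasma cells. The genotypes overlapped, with means of 71.6% ± 9.24 in WT and 62.1% ± 16.1 in APP (SD, n = 4 libraries each, two-sided exact permutation p = 0.4, adjusted over 4 shares 0.8).

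Igha, the constant gene of IgA, was highest in the APP food allergy library. Its plasma cell level was 10793, 6344, 9936 and 7185 CPM in the 4 WT libraries, and 5736, 3795, 3550 and 16905 CPM in the APP libraries. IgA cells made up 19.7%, 16.8%, 27.3% and 25% of WT plasma cells and 17.0%, 11.4%, 10.6% and 50.6% of APP plasma cells. APP food allergy thus stood above the other 7 libraries, by 33.6 points over APP control (95% interval 23.6 to 43.1, counting error only) and 25.6 points over WT food allergy (15.4 to 35.4; 29.3 points with each near-identical set counted as 1 cell). By genotype the IgA share did not separate, at 22.4% ± 19.0 in APP and 22.2% ± 4.81 in WT (SD, n = 4 libraries each, difference 0.199 points, exact permutation p = 0.971, adjusted 0.971). Without APP food allergy the difference was -9.21 points (exact permutation p = 0.114).

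The IgA share differed between hashtag groups of 1 library. In APP food allergy, 47 of the 60 plasma cells under hashtag 5 were IgA (78.3%), against 12 of 47 (25.5%) under hashtag 4 and 3 of 12 (25%) under hashtag 7. The 60 plasma cells under hashtag 5 carried 37 variable gene pairs, the largest with 5 cells. In WT control the shares were 1 of 25 (4%), 0 of 47 (0%), 14 of 22 (63.6%) and 7 of 15 (46.7%) under hashtags 4 to 7, and in WT acute colitis 10 of 23 (43.5%) and 8 of 72 (11.1%). These WT control groups held 4, 16, 19 and 12 variable gene pairs, the largest with 22, 16, 4 and 3 cells. The WT acute colitis groups held 18 and 33 pairs, the largest with 3 and 29 cells. The high IgA share of APP food allergy was thus found under 1 of its 3 hashtags with at least 10 plasma cells. In WT control the groups with 4% and 0% IgA had low and those with 63.6% and 46.7% high immediate-early levels. Over all libraries, 742 of 27427 cells (2.71%) of the high set were plasma cells, of which 24.8% were IgA and 13.7% IgG, against 141 of 16406 (0.859%) of the low set, of which 12.1% were IgA and 7.09% IgG. These 4 counts have near-identical sets counted as 1 cell. The low set leaned on WT control, whose hashtags 4 and 5 gave 25 and 47 of its 141 plasma cells. In APP control the low group with at least 10 plasma cells held 6.67% IgA, against 17.0% and 22.6% in the high groups. In APP acute colitis the values were 24% against 14% and 6.94%, and in APP food allergy 25% against 25.5% and 78.3%. The part of the immediate-early sets in the classes was not tested.

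**Figure D3:**
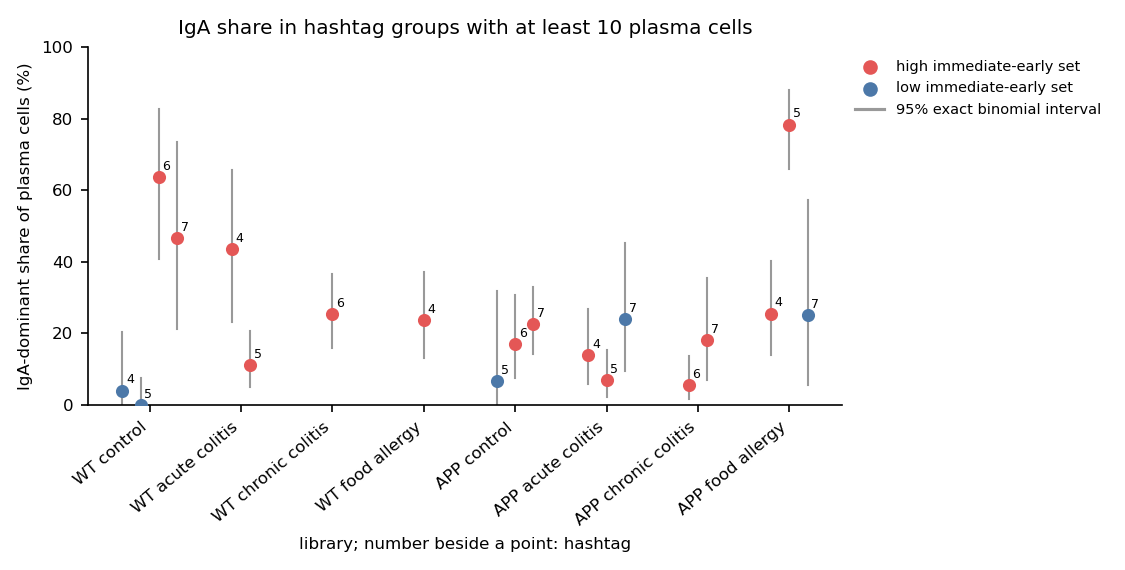
Share of IgA-dominant cells (%) among the plasma cells of each hashtag group with at least 10 of them, near-identical sets counted as 1 cell, with exact 95% binomial intervals and colours for the high and low immediate-early sets. Hashtag 5 of APP food allergy stands highest, at 78.3%, and hashtags 4 and 5 of WT control lowest, at 4% and 0%.

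IgG plasma cells were few in WT and more frequent in APP libraries once near-identical sets were counted as 1 cell. They numbered 1, 2, 12 and 24 in the 4 WT libraries, or 0.704%, 1.77%, 8.63% and 10.9% of plasma cells, and 39, 23, 32 and 15 in the APP libraries, or 20.1%, 10.95%, 21.2% and 9.49%. One set of 22 barcodes in WT food allergy was IgG (Ighg2b with a lambda chain), and with sets counted as 1 cell the WT shares were 0.704%, 1.77%, 9.02% and 2.91%, all under the 9.49% to 23.0% of the APP libraries. With all barcodes, APP averaged 15.4% ± 6.06 and WT 5.504% ± 5.03 (SD, n = 4 libraries each), a difference of 9.93 points (two-sided exact permutation p = 0.0571, adjusted over 4 shares 0.229). With sets counted as 1 cell the means were 15.9% ± 6.68 and 3.60% ± 3.72, a difference of 12.3 points at the smallest p that 4 against 4 libraries allow (exact permutation p = 0.0286, adjusted 0.114). Neither adjusted value passed 0.05. The difference was 19.4 points in control mice (95% interval 13.1 to 25.8), 9.18 in acute colitis (3.26 to 14.4), and, with sets counted as 1 cell, 14.0 for chronic colitis mice (4.86 to 23.0) and 6.58 for those with food allergy (-0.160 to 12.7), where intervals cover counting error only. When each variable gene pair was counted as 1 cell, the means were 22.7% ± 10.1 in APP and 5.96% ± 5.58 in WT (exact permutation p = 0.0286, adjusted 0.114). Within the high immediate-early hashtag groups, all barcodes kept, the difference was 9.07 points (exact permutation p = 0.257).

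The counts of Ighg1, Ighg2b and Ighg2c cells were each higher in APP with sets counted as 1 cell. With sets counted as 1 cell, Ighg1 led in 5 of 491 WT plasma cells (1.02%, 0.331 to 2.36) and 31 of 701 APP plasma cells (4.42%, 3.02 to 6.22). Ighg2c, the subclass that C57BL/6 mice carry in place of Ighg2a, led in 4 WT (0.815%, 0.222 to 2.07) and 40 APP cells (5.71%, 4.11 to 7.69). For Ighg2b the counts were 8 (1.63%) and 34 (4.85%), whereas with all barcodes both genotypes stood at 4.72% and 4.77%. Ighg3 led in 1 WT and 4 APP cells and Ighe in 1 WT cell, from chronic colitis. These intervals pool the cells of 4 libraries and cover counting error only.

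The level of each IgG gene rested on few cells and moved accordingly. Ighg1 stood at 7.78, 0, 1772 and 50.7 CPM in the WT and at 1303, 60.5, 8275 and 933 CPM in the APP plasma cells. Ighg2c stood at 341, 427, 821 and 6.68 CPM in WT and at 4212, 1362, 1290 and 898 CPM in APP, so the APP libraries were all above the WT ones. Ighg2b stood at 16.1, 279, 1445 and 927 CPM in WT and at 1736, 2707, 601 and 712 CPM in APP. Ighg3 was at or above 438 CPM in WT chronic colitis, APP chronic colitis and APP food allergy and at most 25.5 CPM in the other 5 libraries. Ighe, the constant gene of IgE, was 141 CPM in WT chronic colitis, from 1 cell, and 4.94 CPM in APP chronic colitis, and was at 0 in the other 6 libraries, both food allergy libraries included.

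**Figure D4:**
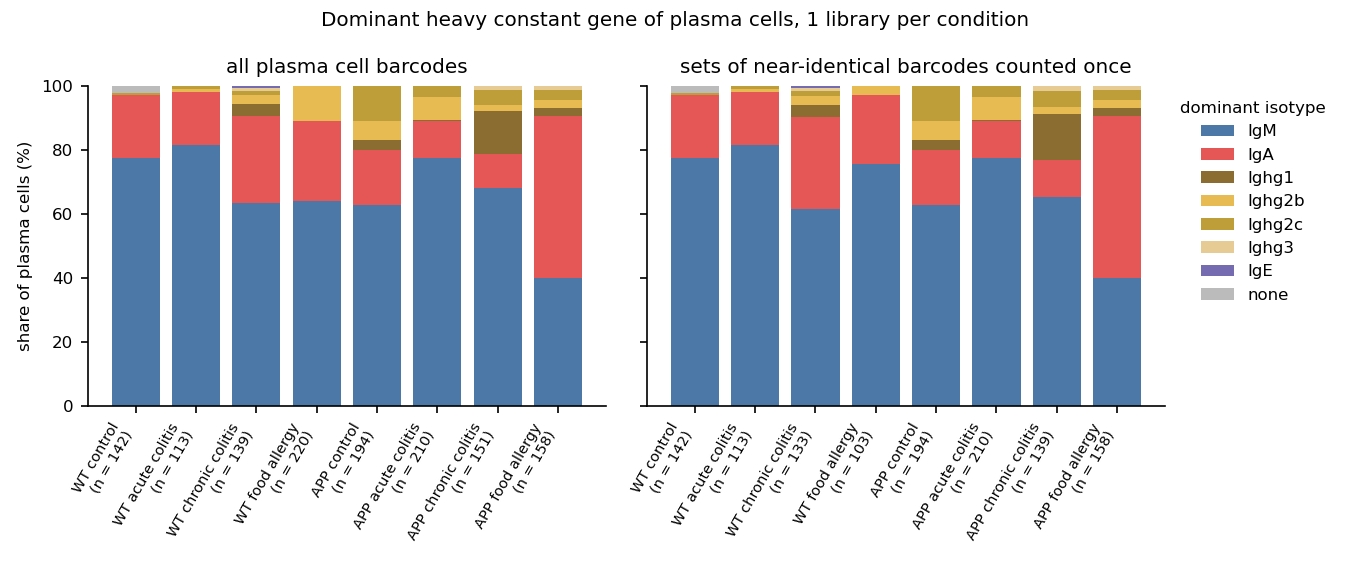
Share of plasma cells (%) by dominant heavy constant gene in each library, with all barcodes on the left and near-identical sets counted as 1 cell on the right. IgG takes 9.49% to 23.0% of the APP bars and 0.704% to 9.02% of the WT bars on the right.

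IgM cells shared their variable genes with more cells of a library than IgA cells did. Variable genes were read from the counts alone, without junction sequences, so cells that share a heavy and a light variable gene in a library are called a pair and need not be 1 clone. With sets counted as 1 cell, 801 IgM cells held 307 pairs, the largest with 35 cells, and 56.3% of them sat in pairs of 4 or more cells. The 260 IgA cells held 205 pairs, the largest with 5 cells, and 10.0% sat in such pairs. The 127 IgG cells held 94 pairs, the largest with 12 cells, an Ighg2c pair in APP control. Drawn down to the same number of cells per library, IgA gave 0.837 ± 0.0985 pairs per cell and IgM 0.608 ± 0.150 (SD, n = 8 libraries). The value was higher for IgA in 7 of 8 libraries, WT food allergy being the exception (two-sided paired exact permutation p = 0.0156). This test was not planned beforehand, and its p is not adjusted. In 13 pairs, cells of more than 1 class occurred, as in APP acute colitis, where Ighv1-80 with Igkv4-55 was found in 3 Ighm, 4 Ighg2b and 1 Ighg2c cells, and in APP control, where Ighv14-4 with Iglv1 was found in 1 Ighm and 3 Ighg2b cells.

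Jchain was higher in IgA than in IgM plasma cells of every library. In IgA cells it stood at 61948, 82372, 58915 and 57164 CPM in the WT libraries and at 64333, 69468, 73429 and 70341 CPM in the APP libraries. In IgM cells the values were 36929, 61783, 49283 and 42489 CPM in WT and 42699, 54174, 52943 and 51057 CPM in APP. Only the IgM value of WT acute colitis reached into the IgA range. The ratio within a library averaged 1.38-fold (log2 0.47 ± 0.15, SD, n = 8 libraries, higher in 8 of 8), at the smallest p such a test allows (paired exact permutation p = 0.0078, adjusted over 4 such tests 0.03125). Cells were gated on Jchain, the gene compared here, so all were positive. The comparisons of Jchain between classes, those with IgG cells included, are therefore a description. The gate was 5 UMIs, and with sets counted as 1 cell the medians were 865 UMIs in IgM and 1759 in IgA cells. The part of the gate in the difference was not tested.

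IgG cells held the least Jchain. In the 6 libraries with at least 10 IgG cells they stood at 17984 to 28954 CPM, all under the 57164 to 73429 CPM of IgA cells in those libraries, a 2.72-fold difference (log2 1.44 ± 0.14, SD, higher in IgA in 6 of 6, paired exact permutation p = 0.03125, the smallest possible, adjusted 0.0625). The lowest IgG value was that of WT food allergy, where 22 of the 24 IgG barcodes were 1 near-identical set. With sets counted as 1 cell that library did not enter, and in the other 5 IgG cells stood at 22060 to 28954 CPM (log2 1.40 ± 0.0969, higher in IgA in 5 of 5, paired exact permutation p = 0.0625, the smallest possible). In the edgeR quasi-likelihood fits across all genes neither difference passed (Benjamini-Hochberg adjusted p = 0.486 against IgM, log2 0.88, SE 0.50, and adjusted p = 0.651 against IgG, log2 1.56, SE 1.20). Igkc did not separate the classes, with log2 ratios of -0.22 ± 0.57 for IgA over IgM (paired exact permutation p = 0.367) and 0.18 for IgA over IgG (p = 0.656 by the same exact permutation). On the fitted scale Igkc stood at 0.21 and 0.28 (edgeR quasi-likelihood adjusted p = 0.912 and 0.954).

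Beside their constant genes, IgA and IgM plasma cells differed in homing receptors. Of 7229 genes tested, 203 (2.81%) were called by the edgeR quasi-likelihood test (Benjamini-Hochberg adjusted p under 0.05, library as a block), 101 higher (1.4%) and 102 lower (1.41%) in IgA cells. The heavy constant genes, which chose the cells, are not counted, and without any immunoglobulin gene 97 were higher and 91 lower. In plain CPM 31 of these 97 were higher in every library, and 85 of the 91 were lower in every library. Fitted log2 differences stood 0.42 above those of plain CPM, in which the median gene differed by -0.47. Ccr10, the receptor that draws IgA plasma cells to epithelial surfaces, was at 82.6, 87.3, 68.2 and 44.9 CPM in the IgA cells of the WT libraries and at 63.6, 76.0, 63.9 and 88.3 CPM in the APP libraries. In IgM cells Ccr10 was at 4.30, 8.80, 8.64 and 3.91 CPM in WT and at 6.32, 23.5, 8.65 and 17.9 CPM in APP. Both ranges were apart in all 8 libraries (log2 3.25, SE 0.23, adjusted p = 6.0e-05). Ccr9, which directs cells to the small intestine, was at 2.46 to 18.2 CPM in IgA and 0 to 2.23 CPM in IgM cells (log2 3.46, SE 0.45, adjusted p = 0.0033), the lowest IgA value resting on 1 UMI.

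Of 13 homing and adhesion genes, 10 were tested and 4 were higher in IgA cells: Ccr10, Ccr9, Itgb7, the beta chain of the gut-homing integrin (log2 0.92, adjusted p = 0.0055, higher in 7 of 8 libraries), and Cd28, a receptor that sustains plasma cells (log2 1.02, adjusted p = 0.016, 8 of 8). Their median was 0.42, against -0.02 over all genes. A Ccr10 UMI was found in 68.8% of IgA cells, 14.1% of IgM cells and 11.02% of IgG cells, against 0.261% of neutrophils, given for comparison, at median depths of 25543, 18807, 27207 and 7224 UMIs. For Ccr9 these shares were 15.4%, 1.87%, 3.94% and 0.784%. Itgb7 and Cd28 were also frequent in IgG cells. An Itgb7 UMI was found in 54.6% of IgA, 27.8% of IgM and 44.1% of IgG cells, and a Cd28 UMI in 55.8%, 32.6% and 56.7%. Against IgG cells, 9 of the 13 homing and adhesion genes were tested and 1 was higher in IgA cells. Of 24 plasma cell genes all were tested and 3 rose in IgA cells, namely Tnfrsf17, the receptor for the survival factor APRIL (log2 0.73), and Edem1 and Edem2, which clear misfolded protein (0.63 and 1.02), while Xbp1, Prdm1 and the other genes of this list did not pass. The call of Edem1 was lost under 10 of 21 alternatives. None of the 7 tested genes of switching and germinal centres passed.

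Other genes that were among the highest in IgA cells and higher in every library were Fads2 (log2 4.75) and Fads3 (3.18), which desaturate fatty acids, Gpnmb (2.82), Tesc (2.76), Cst6 (2.19), Vpreb3 (1.89) and Gm4316 (1.72). Fads2 had a UMI in 26.5% of IgA, 1.12% of IgM and 9.45% of IgG cells. Genes lowest in IgA cells were Wipf3 (-5.72), Lipc (-3.56), Spon1 (-3.23), Il10 (-2.87), Cpq (-2.70), Mgmt (-2.69), Cldn7 (-2.61), Egr3 (-2.56), C1qb (-2.49) and Apoe (-2.40). Il10, the gene of an anti-inflammatory cytokine, was at 10.3 to 19.8 CPM in IgM and 0 to 3.97 CPM in IgA cells (adjusted p = 0.0062), and Egr3, an immediate-early gene, at 3.12 to 15.5 and 0 to 2.92 CPM. Of 12 B cell identity genes 8 were tested, with a list median of -0.55, and 2 were lower in IgA cells. These were the surface protein Ms4a1 (log2 -1.96, edgeR quasi-likelihood adjusted p = 0.034) and Bank1 (-2.13, adjusted p = 0.021). The Ms4a1 call was lost under 11 of 21 alternatives. C1qb and Apoe are macrophage genes: of 11 macrophage markers 7 were tested and 3 were lower in IgA cells, and their sum was 78.4 to 971 CPM in IgM and 7.37 to 150 CPM in IgA cells. Within the plasma cluster alone the sums were 62.0 to 841 and 7.22 to 155 CPM. Of the other marker lists, 2 erythroid genes (Hba-a1 and Hbb-bs), Irf8, Kit and the mature B cell marker Fcmr were called lower in IgA cells. Called higher were 2 of 6 tested plasmacytoid dendritic cell markers, the homing gene Ccr9 among them. So were 2 of 4 tested developing B cell markers and 1 of 2 tested migratory dendritic cell markers. Erythroid markers summed to 0.859 to 683 CPM in IgM and 0 to 7.23 CPM in IgA cells. Neutrophil precursor markers had a median of -1.80 with 0 of 10 called, at 2.58 to 6175 and 1.98 to 5511 CPM. The part of other cells' RNA in these genes was not tested.

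Against IgG cells, in 6 libraries, 65 of 4323 genes (1.5%) were called, 31 higher (0.717%) and 34 lower (0.786%) in IgA cells, again without the heavy constant genes. Ccr10 stood highest, at 44.9 to 88.3 CPM in IgA and 0 to 13.5 CPM in IgG cells (log2 3.81, SE 0.32, adjusted p = 0.0018 by the edgeR quasi-likelihood test). Tnfrsf17 was at 89.9 to 130 CPM in IgA and 0 to 68.3 CPM in IgG cells (log2 1.51, adjusted p = 0.028). Of 24 plasma cell genes it alone rose, while Fkbp11 and Txndc11, which help fold secreted protein, were lower in IgA cells (log2 -1.27 and -0.86). Other genes that were higher in IgA cells of all 6 libraries were Gpnmb (2.31), Lat (2.25), Plcd3 (2.13), Glipr1 (1.95), Gramd1a (1.68), St6gal1 (1.499), Fmnl1 (1.14) and Il2rg (1.10). Lower were Mgarp (-4.70), Cldn7 (-3.13), Ly6c2 (-2.96), 4933404K13Rik (-2.63), Pon3 (-2.31), Oosp1 (-2.27), Fcmr (-2.12), Pld4 (-1.89), Ccnd2 (-1.77) and Mfsd4a (-1.63). Ly6c2, a surface protein of monocytes and some lymphocytes, was at 169 to 1042 CPM in IgA and 2817 to 5403 CPM in IgG cells. With sets counted as 1 cell WT food allergy no longer entered, and 47 genes were called, 40 of them shared.

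No member was called in the plasma cells of either genotype or any treatment. The edgeR quasi-likelihood fit on all 8 libraries (genotype plus treatment, Benjamini-Hochberg adjustment over 9418 genes) called 10 genes by genotype (0.106%, of which 0.0637% higher in APP), 1 by acute colitis (0.0106%), 4 by chronic colitis (0.0425%) and 1 by food allergy (0.0106%), and 0 of them were members. At an unadjusted p under 0.05, 902, 512, 797 and 522 genes stood in these fits, and DESeq2 called 118, 33, 60 and 32. Ighg1 differed by log2 5.72 (SE 1.39, adjusted p = 0.400) and Ighg2c by log2 3.25 (SE 1.22, adjusted p = 0.484), both higher in APP, and Ighe, which rested on 1 WT cell, by log2 -4.59 (adjusted p = 0.123). Jchain differed by log2 0.24 (adjusted p = 0.934). The gene called by acute colitis and by food allergy was the same variable segment, Ighv14-1. It stood at 319 CPM in APP control, 886 in APP chronic colitis and at most 2.11 elsewhere. The genotype calls included Ighv14-1, other variable segments and Hbb-bs (152 CPM in APP control, 218 in APP chronic colitis, at most 0.457 elsewhere). Those of chronic colitis included Mpo and Ctsg, markers of neutrophil precursors. The part of other cells' RNA in these calls was not tested. Pon3, one of the genes higher in IgG than in IgA cells, was called higher in APP plasma cells (log2 1.22, adjusted p = 0.023), at 103, 110, 150 and 103 CPM against 64.5, 43.0, 76.6 and 59.3 CPM in WT. None of the genes of the plasma cell, homing, switching and B cell identity lists was called in plasma cells by genotype or treatment.

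The share of plasma cells among all cells did not separate the genotypes: 2.03%, 2.32%, 2.47% and 4.04% in the 4 WT libraries and 2.78%, 2.92%, 2.48% and 2.31% in APP. The means were 2.72% ± 0.902 and 2.62% ± 0.278 (SD, n = 4 libraries each, exact permutation p = 0.914, adjusted 0.971). With sets counted as 1 cell WT food allergy fell to 1.93%, and the APP mean stood 0.408 points above WT (exact permutation p = 0.171). With only barcodes above a high UMI cutoff kept as cells, APP held 5.92% ± 0.475 and WT 4.08% ± 0.422 (exact permutation p = 0.0286, adjusted 0.0571), so the difference changed with which barcodes were kept as cells.

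Mature B cells, 7547 in number, carried IgM and IgD and almost no switched class. Ighm stood at 1253, 1644, 2005 and 1604 CPM in the 4 WT libraries and at 1295, 1428, 1633 and 1468 CPM in APP. Ighd, which marks naive follicular B cells, stood at 204, 119, 128 and 128 CPM in WT and at 201, 121, 71.7 and 117 CPM in APP. Ighd was thus highest in both control libraries, and its ratio to Ighm was 0.162 and 0.155 there against 0.0439 to 0.0850 in the 6 treated libraries. In the fit over treatments, Ighd fell short of a call in chronic colitis (log2 -1.02, SE 0.20, edgeR quasi-likelihood adjusted p = 0.060), as did Ighm, which stood higher there (log2 0.53, adjusted p = 0.139), with 48 of 10204 genes (0.47%) called in that comparison, 27 higher (0.265%) and 21 lower (0.206%). Acute colitis and food allergy called 0 genes in edgeR, with 730 and 633 at an unadjusted p under 0.05 and 12 and 0 by DESeq2.

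The composition of the B cells moved with Ighd. One cluster of mature B cells held 229 to 357 CPM of Ighd and another 51.4 to 144 CPM. The Ighd-high cluster made up 53.6% and 43.5% of mature B cells in the WT and APP controls and 13.8% to 39.0% in the treated libraries. Its part in the Ighd level was not tested. Developing B cells held 879 to 1233 CPM of Ighm and 7.97 to 30.7 CPM of Ighd.

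Switched mature B cells were rarer in APP than in WT libraries. Of 5337 mature B cells with a class, 31 (0.581%) were switched, 9 to IgA and 22 to IgG. They numbered 5, 12, 6 and 4 in the 4 WT libraries and 1 in each APP library, or 0.838%, 1.08%, 0.75% and 1.83% in WT against 0.176%, 0.113%, 0.136% and 0.237% in APP. The means were 1.13% ± 0.49298 and 0.165% ± 0.0543 (SD, n = 4 libraries each, difference -0.960 points), at the smallest p this design allows (two-sided exact permutation p = 0.0286). This test was added after the values were seen, and its p is not adjusted. By the same rule 1 of 325 T cells with a class (0.308%) and 2 of 2893 developing B cells (0.0691%) were switched. The APP shares, each resting on 1 cell, lay between these values. Of the 31 switched mature B cells, 26 had no Jchain UMI, and 29 with both variable genes read held 27 pairs. In the high immediate-early set 25 of 2077 WT and 2 of 1532 APP cells were switched, and in the low set 1 of 270 and 2 of 774. Ighg2b was called lower in APP mature B cells (log2 -2.48, SE 0.33, adjusted p = 0.020 by the edgeR quasi-likelihood test), at 6.62, 13.5, 8.58 and 34.9 CPM in WT and 2.14, 2.97, 1.42 and 2.99 CPM in APP, 1 of 13 genes called among 10204 (0.127%), 12 of them lower (0.118%) and 1 higher (0.0098%). It rested on 157 UMIs in 62 mature B cells over all libraries, and passed the expression filter only through the WT libraries. The same UMIs enter the switched share, so this call is a description and gives that share no separate support. The genes called lower with Ighg2b include the activation and stress genes Nr4a1 (log2 -1.71), Plk2 (-1.34), Ppp1r15a (-1.27), Dusp5 (-0.95), Cebpb (-0.80) and Per1 (-0.77), whose part in the Ighg2b difference was not tested. The call was lost without WT acute colitis (adjusted p = 0.147), WT food allergy (0.114), APP acute colitis (0.135) or APP food allergy (0.085), with log2 -2.10 to -2.68 throughout. In plasma cells the IgG share stood the other way round, higher in APP.

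Over 153 sums of a library and a cell type (20 types), the genes whose log2(CPM + 10) followed Jchain most closely were Fut1 (Pearson r = 0.960), Tnfrsf17 (0.94998) and Gabra4 (0.947). Igha was followed by Fut1 (0.955), Oosp1 (0.953) and Tnfrsf17 (0.949), Ighm by Eaf2 (0.918), Mzb1 (0.858) and Gm34215 (0.849), and Ighd by Cd22 (0.915), 4930426D05Rik (0.894) and Srpk3 (0.880). The sums share libraries, depth and cell types, so these values are a description.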

How the data were processed

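Brain CD45.2+ cells of 8 libraries were read from the 5′ end. The authors deposited raw UMI counts for 32285 genes and 4 hashtags, with all barcodes, mapped to mm10. The labels name Cell Ranger 6.1.2, whereas the file headers name another major version. Cells were barcodes that differed from free RNA (FDR 0.01), with at least 200 genes and at most 5% mitochondrial counts, clustered with scanpy 1.11.5 (Leiden resolution 0.5). Plasma cells held at least 5 Jchain UMIs, and a class needed at least 3 heavy constant UMIs. Counts were summed per library and tested with edgeR 4.0.16 (quasi-likelihood, TMM, genotype plus treatment, or class with library as a block, at least 10 cells per class), with DESeq2 1.42.0 as an alternative, each with Benjamini-Hochberg adjustment at 0.05. Shares were compared by exact permutation of 4 against 4 libraries, whose smallest p is 0.0286. Since nothing ties hashtags to mice, p-values measure the spread between libraries. The automatic doublet caller marked at most 0.043% of a library's cells, so doublets were also marked by highest score. In simulated counts the genotype fit in plasma cells called 87.0% of genes changed 4-fold and 38.8% of those changed 2-fold. It also made 11 false calls, and the genotype fit in mature B cells made 15. The members and lists were chosen with earlier results of these data known. Beside the members, named genes were the 10 highest and 10 lowest called in the class fits that moved the same way in every library, immunoglobulin genes left out, up to 6 genes per list by adjusted p, and the 3 genes most correlated with Jchain, Igha, Ighm and Ighd. Pon3, Ighv14-1 and Hbb-bs by genotype, Ighv14-1, Mpo and Ctsg by treatment, Fkbp11 and Txndc11 were named after their values were seen. The counting of near-identical sets and of variable gene pairs once, and the test of switched mature B cells by genotype, were likewise added after the values were seen. The paired permutation tests between classes, of Jchain, Igkc and pairs per cell, were not among the tests planned beforehand. A gene that this rule names is not reported here.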

Additional observations from a re-analysis of the deposited data

Results flagged for a closer look

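Dixon's test within the 4 libraries of a genotype marked 11 libraries in 59 groups of values. Chance marks about 1 independent group in 20, but these groups overlap, so the rates cannot be compared. The IgA share entered with all barcodes and with sets counted as 1 cell, beside Igha, and Ighd entered as a level and as a ratio. The 2 marks of Ighe say nothing, since with the other 3 libraries at 0 any value is marked. In WT plasma cells the chronic colitis library stood apart for Ighg1 (1772 CPM, others 0 to 50.7), Ighg3 (438 CPM, others 2.75 to 25.5) and Ighe (141 CPM, others 0). In APP plasma cells, food allergy stood apart for the IgA share (50.6%, with all barcodes and with sets counted as 1 cell) and for Igha (16905 CPM, others 3550 to 5736). Chronic colitis stood apart for Ighg1 (8275 CPM, others 60.5 to 1303) and Ighe (4.94 CPM, others 0), and control for Ighg2c (4212 CPM, others 898 to 1362). In WT mature B cells the control library stood apart for Ighd (204 CPM, others 119 to 128) and for the ratio of Ighd to Ighm (0.162, others 0.0637 to 0.0797).

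The IgG share of plasma cells, with sets counted as 1 cell, was 12.3 points higher in APP and higher under all 4 treatments, whereas the switched share of mature B cells was 0.960 points lower in APP (difference -0.960) and lower under all 4. The difference between these effects was not tested.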

How the results depend on the processing

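By replicate number, no paired analysis was possible because each condition has 1 library and the numbers are only names. Classes were compared within libraries, and the genotype fits had treatment as a term. Values are APP minus WT in points for shares and called genes for counts. Leaving out 1 library at a time gave -0.324 to 0.345 for the plasma cell share, -9.21 to 4.14 for the IgA share, -14.6 to -1.998 for IgM and 8.01 to 11.9 for IgG. The plasma cell share (-0.0967) turned positive in the plasma cluster (0.227), with the order-of-magnitude cutoff (1.85), 1 hashtag only (0.0443), the high immediate-early set (1.85), thinned counts (0.340), sets counted once (0.408) and each pair counted once (0.0537). The IgA share (0.199) turned negative at Jchain of at least 10 (-0.00609), in the high set (-6.59) and with thinned counts (-1.74).

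In plasma cells the genotype count (10) was 4 to 12 without 1 library, 6 with pairs counted once, 118 by DESeq2, 38 without a filter and 6 without a covariate. Acute colitis (1) gave 0 to 5 without 1 library, 0 in the plasma cluster, with 1 hashtag, sets once or pairs once, 33 by DESeq2 and 18 without a filter. Chronic colitis (4) gave 1 to 15 without 1 library, 2 at Jchain of at least 3, 0 in the plasma cluster, 1 with 1 hashtag, 1 with sets once, 0 with pairs once, 60 by DESeq2 and 45 without a filter. Food allergy (1) gave 0 to 3 without 1 library, 0 in the plasma cluster, with 1 hashtag, sets once or pairs once, 32 by DESeq2 and 15 without a filter.

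In mature B cells genotype (13) gave 3 to 27 without 1 library, 5 with the marker gate, 0 with the order-of-magnitude cutoff, 21 by DESeq2 and 304 without a filter. Acute colitis (0) gave 0 to 170 without 1 library, 12 by DESeq2 and 276 without a filter. Chronic colitis (48) gave 3 to 226 without 1 library, 1 with the marker gate, 1 with the order-of-magnitude cutoff, 74 without doublets and 380 without a filter. Food allergy (0) gave 0 to 81 without 1 library, 1 without doublets, 2 with 1 hashtag and 94 without a filter. IgA against IgM (203) gave 125 to 180 without 1 library and 310 by DESeq2. IgA against IgG (65) gave 28 to 47 without 1 library, 43 with 1 hashtag, 35 with pairs once, 139 by DESeq2 and 304 without a filter.

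In log2, signs turned for Mki67, IgA against IgM plasma cells (0.58), within the plasma cluster (-0.0023), and for Apex1, IgA against IgM plasma cells (0.17), within the plasma cluster (-0.47), with pairs once (-0.023), by DESeq2 (-0.13) and among -0.42 to 0.34 without 1 library, WT control giving the negative value. They turned for Msh6, IgA against IgM plasma cells (-0.13), among -0.54 to 0.10 without 1 library, positive without APP acute colitis (0.03) or APP food allergy, and for Igkc, IgA against IgG plasma cells (0.28), with pairs once (-0.030). The low immediate-early set gave no isotype shares by genotype. The causes were not tested.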
